A study of Homo sapiens with 20 samples.

Results

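Erythropoietin (EPO) and stem cell factor (SCF) are the ligands that carry erythroid progenitors through expansion and into terminal differentiation, and their receptors EPOR and KIT meet at shared kinases and adaptors. The 10 genes described here are the receptors KIT and EPOR, the kinase JAK2, the transcription factors STAT5A and STAT5B, the STAT5 target genes CISH, SOCS2, SOCS3 and PIM1, and RHEX, a transmembrane protein that takes part in EPO signalling. They were taken by gene symbol from the 46425 gene symbols of the deposited transcript tables. Of these, 9 could be tested. RHEX was chosen by its measured loss of transcripts by day 8, so its values are given as a description without a test.

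The samples are wild-type HUDEP-2 cells, 1 immortalized line that was derived from cord blood and grows as erythroid progenitors. Day 0 cells grew in serum-free expansion medium with 1 µM dexamethasone. Cells of days 1 to 8 and 12 grew in differentiation medium, on another base medium, with human serum, holo-transferrin, heparin and insulin. The study lists no dexamethasone for it, so every comparison with day 0 also spans this change. EPO was present throughout at 3 U/ml. SCF, the KIT ligand, was present at 100 ng/ml and was left out on day 6, and doxycycline, which keeps the immortalizing genes on, was present at 1 µg/ml and was removed on day 8. Every day therefore shared EPO, while day 8 and day 12 cells had passed the removal of SCF. Whether day 6 cells were collected before or after the change of medium is not given in the sources used here. Poly(A)-selected, stranded RNA-seq gave 2 libraries on each of the 10 days, 20 in all. A deposited table spanning all days holds 1 library of each day (set B), and 3 tables of separate days hold the other (set A). The study calls its replicates biological, and neither it nor the labels say how the cultures of a day were kept apart. The p-values measure the spread between these libraries.

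In the background biology, EPO binding brings EPOR dimers together and activates the JAK2 molecules bound to them, which phosphorylate the receptor and then STAT5A and STAT5B. Active STAT5 dimers bind DNA and switch on survival genes as well as CISH and the SOCS genes, whose SH2 proteins bind back to the receptor complex and dampen it. KIT is itself a tyrosine kinase, is high on proliferating progenitors and is lost as erythroblasts mature.

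Depth was similar in all libraries, at 52131713 to 70358198 counts. A count of 0 allows a level of up to 3 counts, or 0.0426 to 0.0575 CPM, the unit of counts scaled by library total, and this limit covers counting error only. All 11 erythroid markers examined, among them the globins, ALAS2 and SLC4A1, were higher on day 8 than on day 0 by edgeR's quasi-likelihood test. Globin genes took 0.819% to 0.859% of the counts on day 0 and 28.2% to 33.7% on day 12. Set A of days 7 and 8 stood apart, with 17.6% and 16.8% of counts on ribosomal RNA genes against 0.737% to 2.68% in the other libraries. Some day 8 results of the tested members are therefore also given without the set A library of day 8. The day 8 results of the pathway and marker lists all include it. Of 5 megakaryocyte markers, PF4, PPBP and GP1BA were at 0 on days 0, 6, 8 and 12 and GP9 was under 1 TPM. ITGA2B, the 1 marker of that list that could be tested, was at 68.9 and 10.7 TPM on day 0 and 0.292 and 0.140 on day 8 (edgeR adjusted p = 0.00997). The myeloid and lymphoid lists summed to at most 2.12 TPM on those days. Because these are bulk samples, fewer cells of a type and less RNA per cell cannot be told apart.

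KIT was the gene that fell furthest among those tested. Levels are given in TPM, which is scaled for transcript length and library size, summed over the transcripts of a gene. KIT lies at chr4:54657928-54740715 (hg38). In set A it stood at 349 TPM on day 0, 237 on day 1, 189 on day 2, 107 on day 3, 96.5 on day 4, 80.3 on day 5, 65.2 on day 6, 14.4 on day 7, 8.14 on day 8 and 0.935 on day 12. In set B the same days gave 305, 214, 194, 133, 113, 105, 122, 37.5, 38.7 and 0.224 TPM. Both sets were highest on day 0 and lowest on day 12, and from day 3 to day 6 each day overlapped with the next. The libraries of days 7 and 8 lay below every library of the earlier days.

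**Figure D1:**
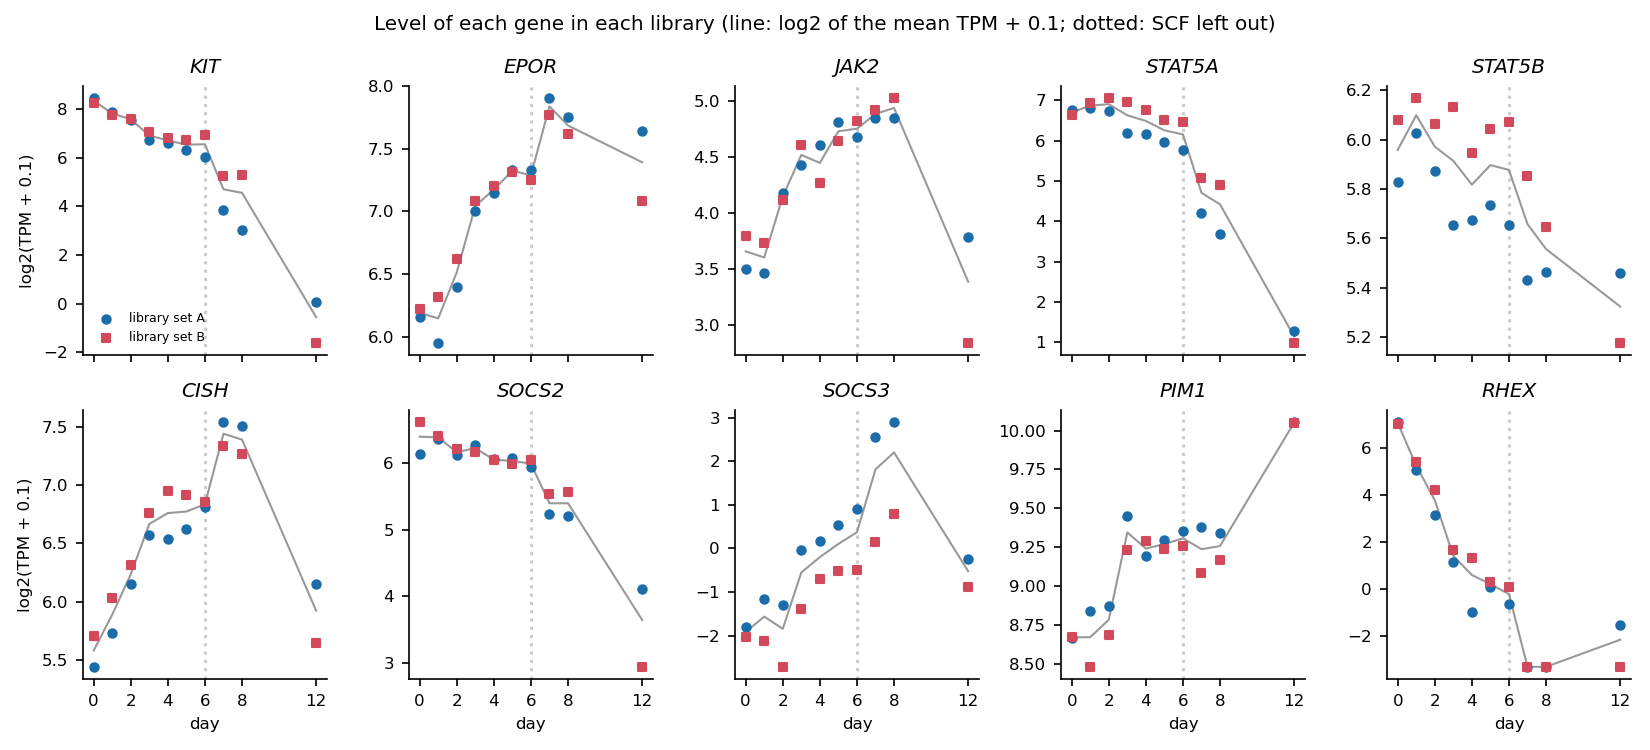
Level of each of the 10 genes by day, as log2(TPM + 0.1), with circles for library set A, squares for set B, a line through the mean of the pair of libraries, a dotted line at the day SCF was left out, and a vertical scale of its own in each panel. KIT, STAT5A, STAT5B, SOCS2 and RHEX end lower than they began, with no overlap between days 0 and 12. The mean of JAK2 also ends lower, with overlap. EPOR and CISH are highest on day 7, JAK2 on day 8 and PIM1 on day 12.

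Differences between days were tested by edgeR's quasi-likelihood test on counts of all 20 libraries, with p-values adjusted by the Benjamini-Hochberg method over 16784 genes. Comparisons that share a day share its libraries and are not independent of each other. KIT fell from day 0 to day 8 by 3.29 ± 0.61 (SE) on the log2 scale (edgeR adjusted p = 0.0011). The fall was 4.72 within set A and 2.47 within set B as log2 values, and the log2 fold change without the set A library of day 8 was -2.62 (edgeR adjusted p = 0.0089). By day 6, with SCF in the medium until then, the difference from day 0 was -1.64 ± 0.57 (log2, edgeR adjusted p = 0.086), which missed the threshold of 0.05, although DESeq2 put its adjusted p at 0.018. Between days 6 and 8 the difference was -1.65 ± 0.57 (log2), which missed the threshold as well (edgeR adjusted p = 0.11). That difference depended on the library and the fit. It was -0.98 without the set A library of day 8 (edgeR adjusted p = 0.65) and -2.96 without the set B library (edgeR adjusted p = 0.014). With library set as a term KIT passed both from day 0 to day 6 (log2 -1.69, edgeR adjusted p = 0.033) and from day 6 to day 8 (log2 -1.70, edgeR adjusted p = 0.040). KIT fell again from day 8 to day 12, by 3.90 ± 0.64 on the log2 scale (edgeR adjusted p = 1.5e-04), with log2 values of -2.00 in set A and -5.61 in set B.

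Mast cells also carry KIT, and the summed level of their markers was lower on days 6, 8 and 12 than on day 0. None of the 5 testable markers of a list of 7 passed the edgeR test between days 0 and 1, 2 were lower on day 6 than on day 0, and all 5 were lower on day 8. The summed level of the list was 1230 TPM in set A and 691 TPM in set B on day 0, 199.8 and 137 on day 6, 26.3 and 21.4 on day 8, and 7.99 and 5.42 on day 12. On day 0 most of the sum was TPSAB1, a tryptase, at 1009 and 527 TPM, and GATA2, which progenitors express too, at 211 and 131 TPM. From day 0 to day 1 the log2 differences in the edgeR fit were 0.405 ± 0.95 for TPSAB1 and 0.19 ± 0.38 for GATA2. They were 0.16 ± 1.36 for HPGDS, -0.20 ± 1.13 for CPA3 and -2.72 ± 1.19 for MS4A2. For KIT the difference was -0.45 ± 0.56 (edgeR adjusted p = 0.97). The day 0 libraries differed for HPGDS (0.788 and 22.7 TPM) and CPA3 (0.815 and 6.04 TPM). HDC and FCER1A were under 1 TPM in both libraries of day 0, and MS4A2, CPA3, FCER1A and HPGDS were at 0 on day 8. The megakaryocyte marker ITGA2B, described above, fell over the same days. The part of these cells or genes in the fall of KIT was not tested.

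EPOR, the EPO receptor, moved the other way. It lies at chr19:11377207-11384314 (hg38). In set A it stood at 71.4 TPM on day 0, 61.7 on day 1, 84.2 on day 2, 128 on day 3, 141 on day 4, 161 on day 5, 161 on day 6, 239 on day 7, 216 on day 8 and 200.1 on day 12. In set B the values were 74.4, 79.8, 98.5, 136, 147, 159, 152, 218, 196 and 136 TPM. Days 0 and 1 overlapped and were the lowest, every library of days 2 to 12 lay above them, and both libraries of day 7 lay above all others. EPOR rose by 1.28 ± 0.15 (log2) from day 0 to day 6 (edgeR adjusted p = 2.6e-04) and by 2.103 ± 0.16 from day 0 to day 8 (edgeR adjusted p = 1.3e-06). The step from day 6 to day 8 was 0.82 ± 0.15 (log2, edgeR adjusted p = 0.011), and it did not pass without the set A library of day 8 (0.61, edgeR adjusted p = 0.15) or the set B library of day 6 (0.70, edgeR adjusted p = 0.15).

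Between day 8 and day 12 the sign for EPOR depended on the scale. On counts scaled by edgeR's TMM factors, which are computed after trimming genes of extreme level or change, EPOR rose by 1.12 ± 0.15 (log2, edgeR adjusted p = 2.9e-05). On TPM the log2 difference was -0.32, which did not pass limma's test (limma adjusted p = 0.11 on log2(TPM + 0.1)). The median log2 difference of all genes tested in that comparison was -0.20 in the edgeR fit and -1.20 on log2(TPM + 0.1). Changes up to day 12 are therefore read against these medians. Earlier comparisons shifted less, with medians on log2(TPM + 0.1) of -0.52 from day 0 to day 8 and -0.35 from day 6 to day 8, against 0 in the edgeR fit. On that scale the steps from day 6 to day 8 were 0.40 for EPOR, 0.18 for JAK2 and 0.55 for CISH. None of them passed limma's test (limma adjusted p = 0.12, 0.65 and 0.074), whereas their rises from day 0 to day 8 did.

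EPOR has a pair of transcripts in the tables, 1 coding and 1 non-coding. The non-coding transcript took 19.2% to 34.0% of the EPOR TPM over the 20 libraries, with a median of 26.5%, and on day 8 it took 22.2% in set A and 30.4% in set B. The coding transcript was thus the larger share in every library. How reads shared by transcripts were divided is not given in the sources used here.

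The EPOR promoter window (RefSeq, GRCh38.p14, minus strand, chr19:11384265-11384564, 250 bases before to 50 after the start) is shown because EPOR rose and because GATA1, the master erythroid factor, binds GATA sites. Capitals mark the match to GATAA or its reverse complement TTATC, which begins at position -78 from the transcription start. Of 35116 windows of the same length, 22.7% hold such a match on either strand. The match describes the sequence alone.
EPOR: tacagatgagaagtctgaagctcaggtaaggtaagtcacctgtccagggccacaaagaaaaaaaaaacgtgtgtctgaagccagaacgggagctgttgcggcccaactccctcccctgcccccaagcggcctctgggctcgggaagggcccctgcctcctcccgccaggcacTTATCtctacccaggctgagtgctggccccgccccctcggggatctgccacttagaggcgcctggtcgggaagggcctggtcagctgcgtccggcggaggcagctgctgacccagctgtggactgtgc

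The ratio of the receptors within a library crossed over during the first days. EPOR TPM was 0.205 times KIT TPM in set A and 0.244 times in set B on day 0. On day 3 the ratio was 1.20 and 1.02, on day 6 it was 2.46 and 1.24, on day 8 it was 26.5 and 5.06, and on day 12 it was 214 and 605. KIT exceeded EPOR in all libraries of days 0 to 2 and EPOR exceeded KIT in all libraries of days 3 to 12.

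JAK2, the tyrosine kinase bound to the tail of EPOR, rose as well. It lies at chr9:4985086-5129948 (hg38). On day 0 it stood at 11.2 TPM in set A and 13.8 in set B, on day 6 at 25.5 and 28.2, on day 8 at 28.6 and 32.4, and on day 12 at 13.6 and 7.04. Days 6 and 8 did not overlap with day 0, whereas day 12 did. The rise was 1.26 ± 0.18 (log2) from day 0 to day 6 (edgeR adjusted p = 7.2e-04) and 1.92 ± 0.18 from day 0 to day 8 (edgeR adjusted p = 7.2e-06). The step from day 6 to day 8 was 0.65 ± 0.18 (log2) and barely passed (edgeR adjusted p = 0.0497), and it missed the threshold in each fit without 1 of the 4 libraries. After day 8 the log2 difference to day 12 was -0.07 ± 0.18 on TMM-scaled counts (edgeR adjusted p = 0.77) and -1.63 on log2(TPM + 0.1), where it passed (limma adjusted p = 5.0e-05). INSL6, which overlaps JAK2 in RefSeq, was at 0 TPM in all 20 libraries.

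STAT5A and STAT5B, the paired transcription factors downstream of JAK2, parted. STAT5A (chr17:42287547-42311943, hg38) stood at 107 and 99.6 TPM on day 0, 106 and 132 on day 2, 54.0 and 87.9 on day 6, 12.9 and 29.7 on day 8, and 2.35 and 1.88 on day 12, giving set A first. The libraries of days 0 to 6 lay between 54.0 and 132 TPM, and those of days 7, 8 and 12 lay below all of them. STAT5B (chr17:42199177-42288437, hg38) stayed between 36.0 and 71.8 TPM in all 20 libraries, and the highest and lowest day means differed 1.71-fold.

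STAT5A fell by 1.72 ± 0.34 on the log2 scale from day 0 to day 8 (edgeR adjusted p = 0.0015), with -2.33 within set A and -1.24 within set B. The change by day 6 was -0.38 ± 0.33 (log2, edgeR adjusted p = 0.53). The fall from day 6 to day 8 was 1.34 ± 0.33 on the log2 scale (edgeR adjusted p = 0.037), and it did not pass without the set A library of day 8 (-0.96, edgeR adjusted p = 0.39) or without either library of day 6 (edgeR adjusted p = 0.058 and 0.28). It fell from day 8 to day 12 by a further 1.80 ± 0.34 on the log2 scale (edgeR adjusted p = 4.8e-04).

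STAT5B did not pass the edgeR test between days 0 and 1, 0 and 6, 6 and 8, or 0 and 8, with a log2 difference of 0.21 ± 0.16 over days 0 to 8 (edgeR adjusted p = 0.31). On TMM-scaled counts it rose by 1.20 ± 0.16 (log2) from day 8 to day 12 (edgeR adjusted p = 2.4e-05). On log2(TPM + 0.1) the same difference was -0.24 (limma adjusted p = 0.35), so the direction for STAT5B turns with the scale. The ratio of STAT5A to STAT5B TPM was 1.90 and 1.48 on day 0, 1.08 and 1.31 on day 6, 0.292 and 0.595 on day 8 and 0.0535 and 0.0520 on day 12, with set A first. STAT5A was the more abundant of the pair in every library up to day 6 and the less abundant in every library from day 7 on. The genes are near-identical paralogs whose RefSeq models overlap by 932 bases at their starts, and reads shared between them could have been split in either way.

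CISH is an SH2 protein that blocks STAT5 docking on EPOR. Its mean TPM rose up to day 7 and had come down by day 12. The gene lies at chr3:50606454-50611774 (hg38). In set A CISH stood at 43.3 TPM on day 0, 52.9 on day 1, 71.0 on day 2 and 94.8 on day 3. It stood at 92.8 on day 4, 98.3 on day 5 and 112 on day 6. Later values were 186 on day 7, 182 on day 8 and 71.1 on day 12. In set B it stood at 52.1, 65.3, 79.4, 108, 124, 120, 116, 161, 154 and 49.98 TPM on those days. From day 3 to day 6 each day overlapped with the next. The libraries of days 7 and 8 lay above all others, and day 12 was back in the range of days 0 to 2.

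CISH rose by 1.46 ± 0.21 (log2) from day 0 to day 6 (edgeR adjusted p = 8.7e-04) and by 2.48 ± 0.22 from day 0 to day 8 (edgeR adjusted p = 4.3e-06). The step from day 6 to day 8 was 1.03 ± 0.21 (log2, edgeR adjusted p = 0.018), and it did not pass without the set A library of day 8 (0.65, edgeR adjusted p = 0.25) or without either library of day 6 (edgeR adjusted p = 0.060 and 0.19). Between days 8 and 12 the log2 difference was -0.09 ± 0.21 on TMM-scaled counts (edgeR adjusted p = 0.75) and -1.49 on log2(TPM + 0.1), where it passed (limma adjusted p = 1.5e-05). MAPKAPK3, whose RefSeq model overlaps the first 255 bases of CISH, was at 15.4 to 111 TPM. A single coding transcript held 86.7% to 95.0% of the CISH TPM in all libraries.

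The CISH promoter window (RefSeq, GRCh38.p14, minus strand, chr3:50611725-50612024) is shown because CISH is the textbook STAT5 target. Capitals mark the matches to TTCNNNGAA, the palindromic core that STAT5 dimers recognize, which reads the same on both strands. The 4 matches begin at positions -241, -230, -129 and -112 from the transcription start. Of the 35116 windows, 7.66% hold at least 1 match and 7 windows (0.0199%) hold 4 or more. None of the windows of the other members with an entry in the table (8 genes) held a match, and SOCS2 had no entry. A match is no evidence that STAT5 was bound in these cells.
CISH: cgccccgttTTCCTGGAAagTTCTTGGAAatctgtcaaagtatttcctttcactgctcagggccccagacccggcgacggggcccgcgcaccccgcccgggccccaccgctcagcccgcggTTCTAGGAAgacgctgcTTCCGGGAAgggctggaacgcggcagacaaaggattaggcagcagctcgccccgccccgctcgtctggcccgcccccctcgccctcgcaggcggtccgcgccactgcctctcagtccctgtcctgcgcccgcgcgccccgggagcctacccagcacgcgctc

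SOCS2 and SOCS3 share the SH2 domain and SOCS box of CISH and differed in course. SOCS2 (chr12:93569849-93626236, hg38), best known for damping growth hormone signalling, stood at 70.1 and 98.2 TPM on day 0, 61.3 and 65.6 on day 6, 36.8 and 47.2 on day 8 and 17.2 and 7.55 on day 12. Its day 12 libraries lay below all others. None of the 5 comparisons passed the edgeR test for SOCS2, with -0.41 ± 0.20 (log2) from day 0 to day 8 (edgeR adjusted p = 0.13). On log2(TPM + 0.1) the same difference was -0.99 and passed (limma adjusted p = 0.011).

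SOCS3 (chr17:78356778-78360925, hg38), a feedback inhibitor of several cytokine receptors, was the least abundant of the 10 genes on day 0. It had 15 and 12 counts on day 0, 168 and 45 on day 6, 721 and 129 on day 8 and 93 and 66 on day 12, or 0.185 and 0.145, 1.77 and 0.614, 7.38 and 1.63, and 0.746 and 0.443 TPM. Set A was above set B on 10 of the 10 days, by up to 5.86-fold. SOCS3 rose by 5.34 ± 1.22 (log2) from day 0 to day 8 (edgeR adjusted p = 0.0041), with 5.68 within set A and 3.74 within set B, and by 3.70 without the set A library of day 8 (edgeR adjusted p = 0.040). The size of the rise therefore rests on that library. The differences from day 0 to day 6 and from day 6 to day 8 missed the threshold (edgeR adjusted p = 0.11 and 0.20) and passed with library set as a term (edgeR adjusted p = 0.0024 and 0.0082).

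PIM1, a serine/threonine kinase that promotes survival and is a target of STAT5, was the most abundant gene of the group. It lies at chr6:37170152-37175428 (hg38). It stood at 406 and 408 TPM on day 0, 469 and 412 on day 2, 700 and 600 on day 3, 654 and 612 on day 6, 649 and 574 on day 8, and 1064 and 1058 on day 12. Days 3 to 8 overlapped with one another and lay above days 0 to 2, and day 12 lay above all others. PIM1 rose by 0.83 ± 0.22 (log2) from day 0 to day 6 (edgeR adjusted p = 0.028) and by 1.20 ± 0.22 from day 0 to day 8 (edgeR adjusted p = 0.0011). The call at day 6 was lost in each fit without 1 of the 4 libraries, with edgeR adjusted p between 0.052 and 0.22. From day 8 to day 12 PIM1 rose by 2.24 ± 0.23 (log2, edgeR adjusted p = 2.0e-06), and it passed in the same direction on log2(TPM + 0.1).

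**Figure D2:**
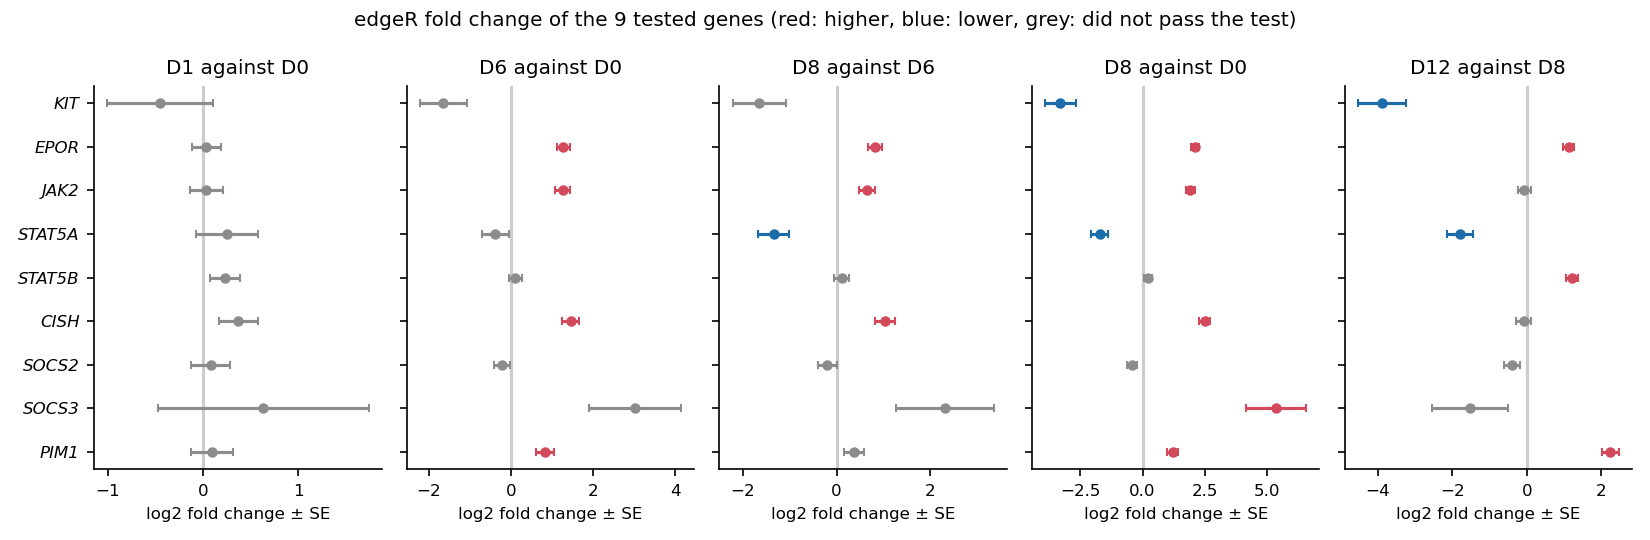
Log2 fold change of the 9 tested genes from edgeR in the 5 comparisons of days, as points with bars of 1 SE, red where higher, blue where lower and grey where the test was not passed, with a horizontal scale of its own in each panel. From day 0 to day 8 EPOR, JAK2, CISH, SOCS3 and PIM1 rose and KIT and STAT5A fell, and none passed between days 0 and 1.

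RHEX, whose protein is phosphorylated after EPO stimulation, was lost within days. It lies at chr1:206053173-206102449 (hg38). In set A it stood at 138 TPM on day 0, 33.1 on day 1, 8.79 on day 2, 2.08 on day 3, 0.408 on day 4, 0.969 on day 5 and 0.544 on day 6. In set B it stood at 131, 42.9, 18.5, 3.02, 2.40, 1.13 and 0.969 TPM on those days. The counts were 4509 and 4590 on day 0 and 0 in all 4 libraries of days 7 and 8. Against a limit of 3 counts per library, day 8 was at least 1095-fold lower than day 0 and day 7 at least 1062-fold lower. Days 0, 1, 2 and 3 did not overlap with one another, and most of the decline in TPM preceded day 3.

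Nearly all RHEX came from 1 of its 2 transcripts, which took 98.8% and 100% of its TPM on day 0 in sets A and B. On day 12 set A had 14 counts, or 0.245 TPM, all on the other transcript, which starts upstream at position 206053173, and set B had 0. The 23 counts of set A on day 6 were also on that upstream transcript. The window at the start of the main transcript (RefSeq, GRCh38.p14, plus strand, chr1:206083345-206083644) is shown because GATA1 binds GATA sites. Capitals mark the match to TTATC at position -159. The members EPOR and RHEX both hold such a match and the other members with a window held none, where 22.7% of all windows hold one. Such a match describes the sequence alone.
RHEX: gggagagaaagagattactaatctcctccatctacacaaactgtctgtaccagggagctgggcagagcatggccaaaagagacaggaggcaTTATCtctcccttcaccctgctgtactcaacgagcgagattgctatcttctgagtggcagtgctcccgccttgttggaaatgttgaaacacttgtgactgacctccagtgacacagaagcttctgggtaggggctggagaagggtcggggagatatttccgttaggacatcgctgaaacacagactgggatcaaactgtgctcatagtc

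Counted over the 9 tested genes, 0 passed between days 0 and 1, with 0 at an unadjusted p under 0.05 and 0 by DESeq2 or edgeR's exact test, where 0.393% of all genes passed. By day 6, 4 had risen from day 0 (EPOR, JAK2, CISH and PIM1) and none fell, against 10.9% of all genes in either direction, 5.59% that rose and 5.35% that fell. From day 6 to day 8, 3 rose (EPOR, JAK2 and CISH) and 1 fell (STAT5A), against 5.19% of all genes, 2.25% that rose and 2.94% that fell. This count did not hold up when a library was left out. It was lower without either library of day 6 and without the set A library of day 8. Without the set B library of day 8 the genes that passed changed, as JAK2 (log2 0.61) dropped out and KIT passed. Over days 0 to 8, 5 rose (EPOR, JAK2, CISH, SOCS3 and PIM1) and 2 fell (KIT and STAT5A), against 37.1% of all genes, 17.7% that rose and 19.4% that fell. The same 7 genes passed without either library of day 8. From day 8 to day 12, 3 rose (EPOR, STAT5B and PIM1) and 2 fell (KIT and STAT5A), against 57.2% of all genes, 23.8% that rose and 33.4% that fell. Without the set A library of day 12, JAK2 (log2 -0.44, edgeR adjusted p = 0.035) and SOCS2 (log2 -0.87, edgeR adjusted p = 0.0011) passed as well. On log2(TPM + 0.1), 1 rose (PIM1) and 6 fell (KIT, JAK2, STAT5A, CISH, SOCS2 and SOCS3) in that last comparison.

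The share of rises among all genes called was lower on the TPM scale in each comparison. Between days 8 and 12, 3997 genes rose and 5611 fell by edgeR, and 1361 rose and 9739 fell by limma on log2(TPM + 0.1). Over days 0 to 8 the counts were 2970 and 3254 by edgeR and 1242 and 6555 by limma. From day 6 to day 8 they were 378 and 493 by edgeR and 183 and 2535 by limma, and from day 0 to day 6 they were 939 and 898 by edgeR and 545 and 1561 by limma. Between days 0 and 1 they were 44 and 22 by edgeR and 88 and 69 by limma.

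**Figure D3:**
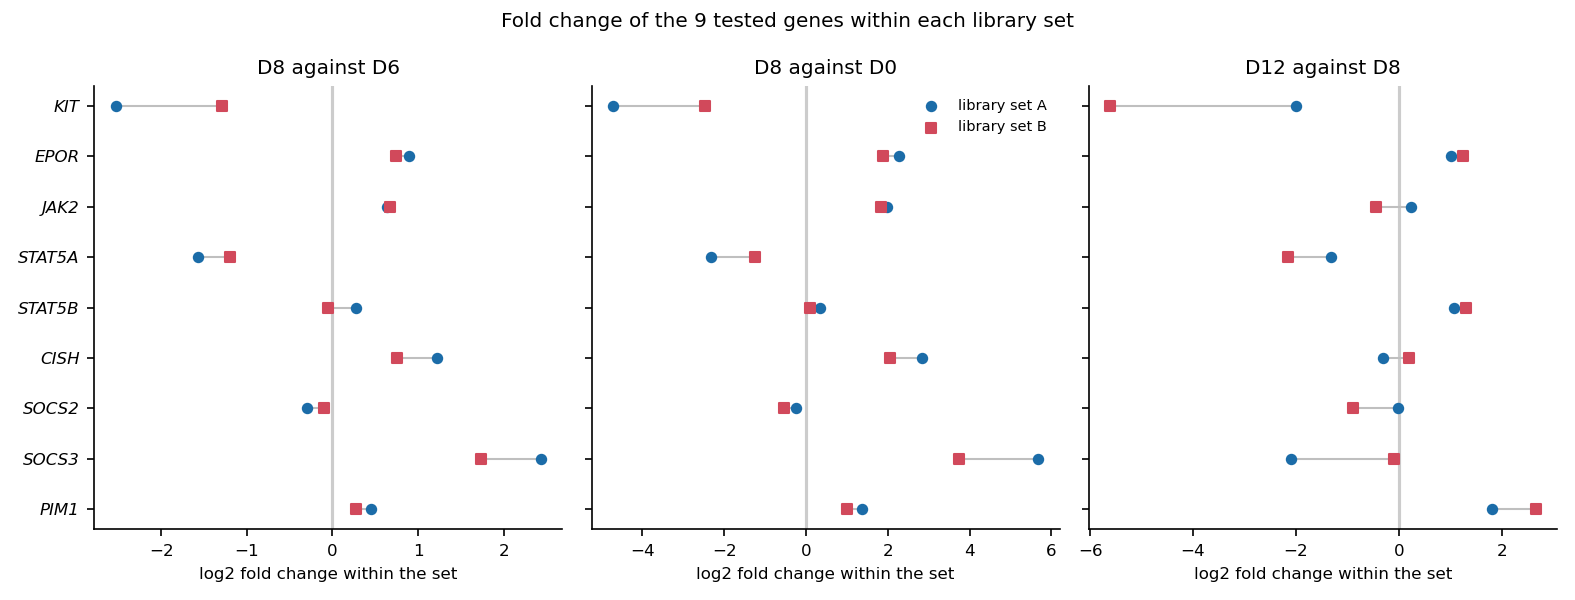
Log2 fold change of the 9 tested genes within library set A (circles) and within set B (squares), joined by a line, for day 8 against day 6, day 8 against day 0 and day 12 against day 8. In each comparison the days of set A come from different deposited tables. KIT differs most between the sets, at -4.72 and -2.47 from day 0 to day 8 and -2.00 and -5.61 from day 8 to day 12.

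Among the ligands and other receptors, EPO transcripts did not pass the filter on low counts and stood at 0 TPM in both libraries of day 0. KITLG, which encodes SCF, was at 0 on days 0, 6 and 8 and had 94 and 79 counts on day 12, at least 50.4-fold above the limit of day 8, a gene looked at after its values were seen. THPO, IL3RA and FLT3 were listed at 0 TPM on days 0, 6, 8 and 12. Of 11 genes in the list 5 were tested. From day 0 to day 8 1 rose and 1 fell, against 17.7% and 19.4% of all genes. CSF2RB, the shared beta chain of the receptors for IL-3, GM-CSF and IL-5, fell from 72.2 and 56.0 TPM to 0.258 and 0.170 (log2 -7.51 ± 0.69, edgeR adjusted p = 5.4e-06). INSR, the insulin receptor, rose by 1.64 ± 0.32 (log2, edgeR adjusted p = 0.0014).

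Among 16 proximal adaptors and kinases, which link the receptors to downstream branches, 3 rose and 6 fell from day 0 to day 8, where 17.7% of all genes rose and 19.4% fell. The median log2 difference was -0.40 against 0 for all genes tested, and the same shares of all genes apply to the lists that follow. LYN, a SRC family kinase active at both receptors, fell from 121 and 119 TPM to 5.90 and 7.72 (log2 -3.54 ± 0.26, edgeR adjusted p = 1.3e-06). PLCG2, a phospholipase, fell from 4.35 and 3.42 TPM to 0.123 and 0.298. VAV1, a guanine nucleotide exchange factor of blood cells, had 1091 and 735 counts on day 0 and 0 on day 8, at least 222-fold lower. FYN, another SRC family kinase, rose from 0.154 and 0.122 TPM to 5.52 and 1.31 (edgeR adjusted p = 0.013).

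Of the 17 negative regulators other than the members, 2 rose and 7 fell, against 17.7% and 19.4% of all genes, with a median of -0.34 (log2). PTPN6, the phosphatase SHP-1 that switches off EPOR and KIT, fell from 54.8 and 52.5 TPM on day 0 to 0.970 and 5.88 on day 6 and 0.197 and 0.428 on day 8 (log2 over days 0 to 8 -6.76 ± 1.00, edgeR adjusted p = 2.1e-04). CBL, a ubiquitin ligase of activated receptors, fell from 4.10 and 5.18 TPM to 0.910 and 0.696. USP18, an inhibitor of interferon receptor signalling, fell from 3.14 and 1.62 TPM to 0.138 and 0.563. DOK2, an adaptor that restrains RAS signalling, had 61 and 62 counts on day 0 and 0 on day 8, at least 14.8-fold lower.

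In the RAS and MAPK branch 3 of 19 genes rose, 6 fell and 10 did not pass, against 17.7% and 19.4% of all genes that rose and fell, with a median of -0.08 (log2). SPRY1, SPRY2 and SPRY4 of that list encode feedback inhibitors that growth factor signalling induces. SPRY2 went from 9.14 and 8.16 TPM to 0.557 and 0.789 (log2 -3.19 ± 0.25, edgeR adjusted p = 2.1e-06), SPRY1 from 5.92 and 7.55 to 0.992 and 1.19, and SPRY4 from 0.874 and 1.69 to 0.0680 and 0.0202. ETV4, an ETS factor downstream of ERK, had 95 and 200 counts on day 0 and 0 on day 8, at least 34.7-fold lower.

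In the PI3K, AKT and mTOR branch 3 of 13 tested genes of 15 rose and 1 fell, with a median of -0.13 (log2). FOXO3, a transcription factor that AKT keeps out of the nucleus, rose from 20.8 and 31.1 TPM to 123 and 86.3 (log2 2.52 ± 0.30, edgeR adjusted p = 3.7e-05). The catalytic subunits differed in direction, with PIK3CA at 0.46 ± 0.14 and PIK3CB at -0.62 ± 0.19 (log2). The small rise of PIK3CA is on TMM-scaled counts, since it was at 13.0 and 14.8 TPM on day 0 and 11.7 and 14.5 on day 8.

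Of the other JAK and STAT genes, 6 of 8 were tested, 1 rose and 3 fell, with a median of -0.14 (log2). STAT3 went from 65.7 and 66.2 TPM to 16.1 and 20.4 (log2 -1.26 ± 0.13, edgeR adjusted p = 1.7e-05) and STAT6 from 73.3 and 55.8 to 18.9 and 22.4. JAK1 was lower by a log2 difference of -0.27 ± 0.10, and TYK2, another JAK family kinase, was higher by 0.60 ± 0.14 on TMM-scaled counts, with 57.0 and 67.3 TPM on day 0 and 58.6 and 65.3 on day 8.

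Among 15 other genes known to respond to EPO or STAT5, 8 rose and 1 fell from day 0 to day 8, against 17.7% and 19.4% of all genes. The median log2 difference was 1.06 against 0 for all genes tested. The list was not sorted by whether EPO or STAT5 raises or lowers a gene, so the counts give no direction of response. ERFE, the erythroid hormone that lowers hepcidin, rose from 24.2 and 16.7 TPM to 201 and 145 (log2 3.70 ± 0.34, edgeR adjusted p = 5.2e-06). CCND3, the D-type cyclin that sets the number of terminal divisions, rose from 139.7 and 142 TPM to 667 and 606 and stood at 119 and 68.3 on day 12. IRS2, an adaptor of the insulin receptor, rose from 1.49 and 0.671 TPM to 9.37 and 4.14. BCL6, a transcriptional repressor, rose from 0.204 and 0.0467 TPM to 8.65 and 0.925 and was at 46.2 and 33.7 on day 12.

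**Figure D4:**
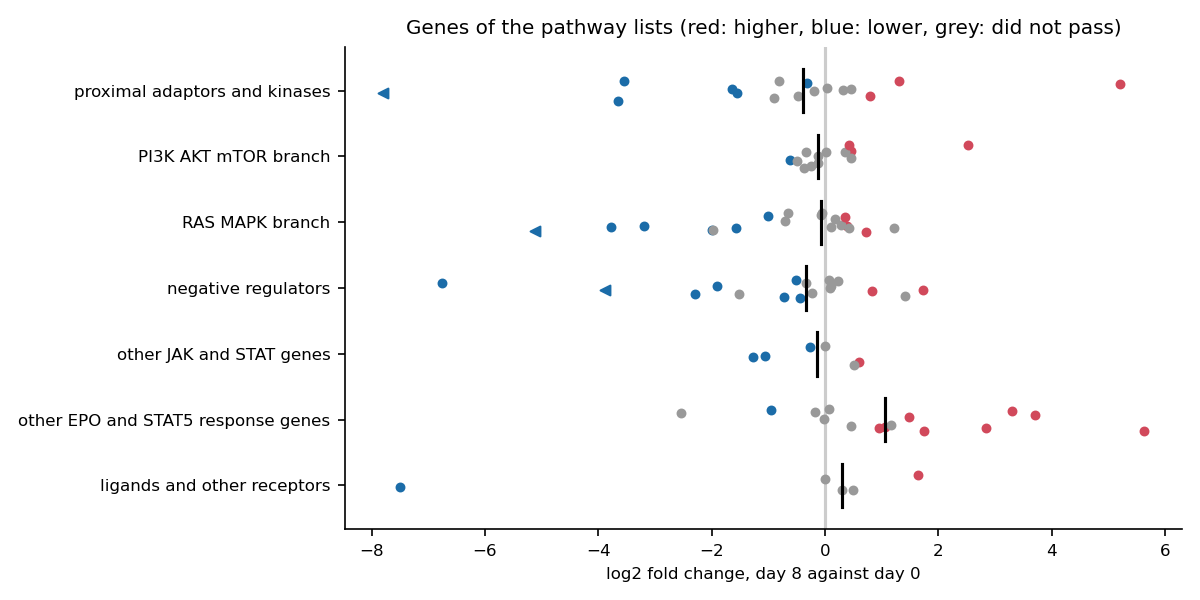
Log2 fold change from day 0 to day 8 of the tested genes of 7 pathway lists, as points, red where higher, blue where lower and grey where the edgeR test was not passed, with a black bar at each list's median. Triangles mark VAV1, ETV4 and DOK2, which had 0 counts on day 8 and are drawn at their lower bounds.

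Some genes outside the 10 had nearly the same course over the 20 libraries, by Pearson's r on log2 normalized CPM among 16774 genes. All 20 points share the course of differentiation and the library sets, so the values are a description. For KIT the closest were SUPT3H (r = 0.994), PCNX4 (0.994) and BDH1 (0.992). For EPOR they were FAM131A (0.990), DCAF11 (0.989) and MKNK2 (0.989). For CISH they were HBM, a globin of the alpha cluster (0.983), BLVRB, biliverdin reductase B (0.980), and CLCN2 (0.978). For RHEX they were VIM, which encodes the intermediate filament vimentin (0.982), CDK15 (0.976) and AHNAK (0.974). VIM went from a mean of 1301 TPM on day 0 to a lowest value of 1.22 TPM.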

How the data were processed

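RNA-seq of HUDEP-2 cells was read from 4 deposited tables of 170322 RefSeq transcripts on hg38. Per the submitters' processing notes, reads were trimmed with Trimmomatic 0.38, aligned with HISAT2 2.1.0 and quantified with StringTie 2.1.3b. The authors deposited whole-number read counts without normalization, and TPM values already scaled by the authors to transcript length and sequencing depth. The annotation release and the division of reads shared by transcripts are not given in the sources used here. In all, 40 value columns were taken. The remaining 23, not used here, hold FPKM or are day 0 columns in excess of the 2 day 0 samples. A column header gives the day and no replicate. Counts were summed by gene symbol, and no row lacked a symbol. The libraries of a day differed by far more than sampling noise (chi-square per degree of freedom of at least 88.7), so none was a repeat deposit.

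edgeR 4.0.16 (filterByExpr, TMM, glmQLFit, glmQLFTest) was fitted to all 20 libraries with a term for each day, and SE is the absolute log2 fold change over the square root of F. The exact test named in the study was run as an alternative. Fold changes within a set are of single libraries. Lower bounds use 3 counts per library and the mean TMM-scaled CPM of the other day. Alternatives were DESeq2 1.42.0, edgeR's exact test, limma 3.58.1 on log2(TPM + 0.1) and log2(TPM + 1), upper-quartile scaling, TMM without globin or ribosomal RNA genes, other low-count filters, only the 2 days compared, library set as a term, and each library left out. Members and lists were chosen with earlier results of these data known. Named genes are the members, up to 4 of each pathway list with the largest absolute log2 fold change among those with an adjusted p under 0.05 from day 0 to day 8 and a mean of at least 10 counts, and the 3 genes closest to KIT, EPOR, RHEX and CISH. Some genes of the pathway lists are not reported here by name. Figures were drawn with matplotlib 3.10.9.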

Additional observations from a re-analysis of the deposited data

How the results depend on the processing

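No paired analysis was possible because the deposited columns carry no replicate number, so that the replicate numbers of the labels could not be tied to them. A fit with library set as a term was run in its place, where set B is a single deposited table and set A joins tables of separate days. It called 6 members in place of 4 from day 0 to day 6 and 6 in place of 4 from day 6 to day 8, adding KIT and SOCS3 in both, and changed no call of a member in the other comparisons. Of 75 counts of members called under an alternative, 69 were within 1.5 times the count reported. The other 6 were all of day 6 to day 8, where 4 members passed. The count was 2 by limma on log2(TPM + 0.1) and 2 on log2(TPM + 1) (KIT and STAT5A, lower). It was 0 with only the libraries of the 2 days compared. It was also lower without either library of day 6 and without the set A library of day 8. With 1 library left out, the lone library of that day is assumed to vary like those of the other days. Fold changes of single members kept their direction and side of the threshold in 580 of 670 cases, passed where the edgeR fit had not in 27, lost the call in 29 and turned sign in 34.

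Limma on log2(TPM + 0.1) and log2(TPM + 1) turned the log2 difference of EPOR to -0.32 and -0.32 from day 8 to day 12 and to -0.0547 and -0.0538 from day 0 to day 1, of JAK2 to -0.0527 and -0.0492 from day 0 to day 1, and of PIM1 to -0.0096 and -0.0095 from day 0 to day 1 and -0.0516 and -0.0515 from day 6 to day 8. It turned STAT5B to -0.0905 and -0.0890 from day 0 to day 6, -0.40 and -0.39 from day 0 to day 8, -0.31 and -0.30 from day 6 to day 8, and -0.24 and -0.23 from day 8 to day 12. From day 8 to day 12, a minimum of 10 counts in every library, DESeq2 and upper-quartile scaling turned CISH to 0.0107, 0.0870 and 0.0844 and JAK2 to 0.0313, 0.10 and 0.11. With 1 library left out, the log2 difference from day 0 to day 1 ran from -0.0993 to 0.161 for EPOR, -0.0612 to 0.139 for JAK2, -0.17 to 0.314 for PIM1, -0.10 to 0.293 for SOCS2 and -0.30 to 1.18 for SOCS3. From day 0 to day 6 it ran from -0.40 to 1.9e-04 for SOCS2 and -0.0159 to 0.2098 for STAT5B, and from day 8 to day 12 from -0.40 to 0.27 for CISH, -0.44 to 0.20 for JAK2 and -2.30 to 0.0880 for SOCS3. The cause was not tested.

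KIT from day 0 to day 6 passed by DESeq2, edgeR's exact test, limma on log2(TPM + 1), with library set as a term, without the filter and with only those days, and missed otherwise. Over all genes, 66 passed from day 0 to day 1 in the edgeR fit and 425 by DESeq2, 245 by the exact test, 442 with library set as a term, 157 and 299 by limma, 0 with only those days and 7 to 50 with 1 library left out. From day 0 to day 6 it was 1837, against 2970 by DESeq2, 3907 with the set as a term, 801 with only those days and 622 to 1152 with 1 library left out. From day 6 to day 8 it was 871, against 2326 by DESeq2, 1483 by the exact test, 2997 with the set as a term, 2718 and 2756 by limma, 0 with only those days and 63 to 1994 with 1 library left out. From day 0 to day 8 it was 6224, against 3726 with only those days and 3568 to 5833 with 1 library left out. A pair of libraries a day limits what could be called, and SOCS3, with 4 counts in its lowest library, is the tested member that depth limits most.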
